A study of Homo sapiens with 2 samples.

Results

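The 3 genes described here are COL7A1, NDOR1 and SNX5, which held the tallest SF3B1 peaks of all protein-coding genes once annotated small RNA genes and their pseudogenes were set aside. They held 5 of the 1406 distinct intervals in the list of SF3B1 peaks: 1 in COL7A1, 1 in NDOR1 and 3 in SNX5. The genes were chosen by peak height, the number of tags at the top of a peak, so their heights and ranks are a description and were not tested. An interval was assigned to a gene when the list names the gene's NCBI number and the midpoint lies inside the gene's RefSeq span. The peaks came from HITS-CLIP, in which ultraviolet light crosslinks RNA to a protein and the RNA recovered with an antibody is sequenced as short tags. The 2 samples were biological duplicates of MDA-231-LM2, a lung-metastatic derivative of the breast cancer line MDA-MB-231, with no treatment named in the labels, and were probed with an antibody against endogenous SF3B1. The antibody label, title and design name SF3B1, whereas the extraction protocol names SNRBP2. Both samples form 1 group, with no control or input, and the deposited peaks were called on the pooled tags, so no value has a replicate error and library depth is unknown.

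SF3B1 is the largest subunit of SF3b, the part of the U2 small nuclear ribonucleoprotein that holds the branch point of an intron against the U2 RNA before splicing. Tags of such a protein can fall on introns and near splice sites as well as on abundant RNAs. COL7A1 encodes the chain of type VII collagen, which forms the anchoring fibrils that tie the epidermal basement membrane to the dermis; loss of the gene causes dystrophic epidermolysis bullosa. NDOR1 encodes a flavoprotein reductase that passes electrons from NADPH to CIAPIN1 in the assembly of cytosolic iron-sulfur clusters. SNX5 encodes a sorting nexin with a membrane-curving BAR domain, which pairs with SNX1 or SNX2 to carry cargo from endosomes to the Golgi.

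The COL7A1 interval had a height of 136 tags and lay at chromosome 3, 48582120 to 48582170 (hg38, as for all positions), on the minus strand, which is the strand of the gene. The NDOR1 interval had 99 tags at chromosome 9, 137213069 to 137213113, on the plus strand, again that of its gene. The tallest SNX5 interval had 97 tags at chromosome 20, 17947385 to 17947431, on the minus strand, also that of its gene. COL7A1 therefore stood above the other 2 genes, which were 2 tags apart, a gap that cannot be judged without replicates. The other SNX5 intervals were far lower, with 14 tags at 17943191 to 17943233 and 9 tags at 17962780 to 17962821, both on the minus strand. The 97-tag interval was 6.93 times as tall as the 14-tag one.

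Among the 1241 intervals in protein-coding genes, heights had a median of 7 tags and quartiles of 6 and 10. COL7A1 was 19.4 times this median, NDOR1 14.1 times and SNX5 13.9 times. In the whole list of 1406 intervals, which includes structural and mitochondrial RNAs, the same peaks ranked 7, 12 and 13. Just below SNX5 came CPSF4, a subunit of the complex that cleaves and polyadenylates mRNA, with 73 tags. ARAP1 followed with 66 tags, then the receptor tyrosine kinase gene EPHA2 and the splicing regulator gene HNRNPH1 with 62 tags each. CTPS1, which makes CTP, had 52 tags. The step from SNX5 to CPSF4 was 24 tags, and 11 intervals in protein-coding genes reached 50 tags. Of the 1010 genes that held an interval outside small RNA genes and their pseudogenes, 3 (0.297%) had one of at least the height in SNX5, a count that the choice of the genes fixes.

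**Figure D1:**
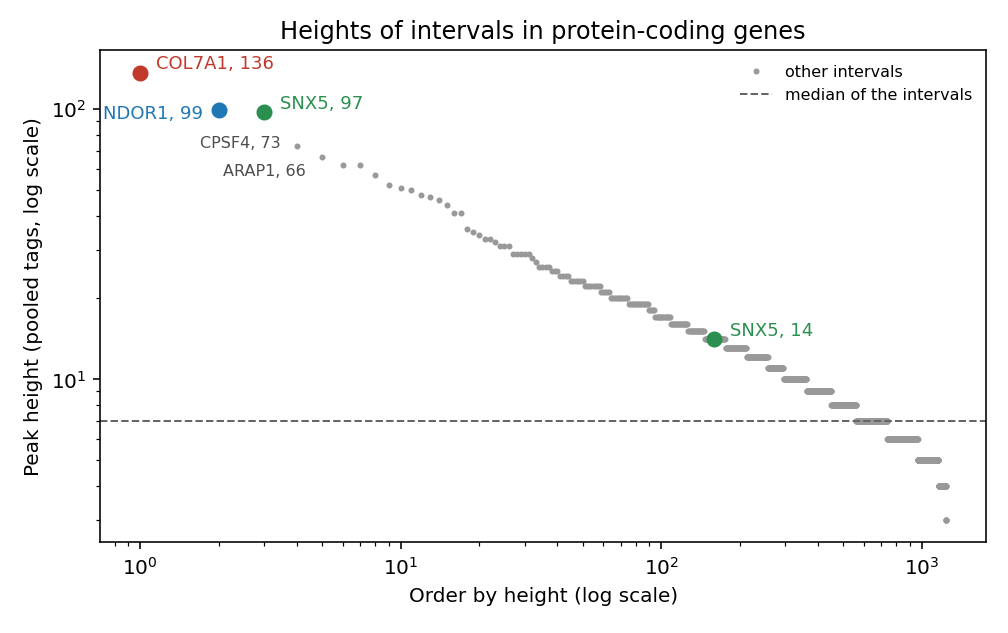
Height of each of the 1241 intervals in protein-coding genes against its place in the order of heights, both on log scales; the dashed line is the median of 7 tags. COL7A1 (136 tags), NDOR1 (99) and SNX5 (97) lie at the top left, above CPSF4 (73) and ARAP1 (66), and the second SNX5 interval of this class (14) lies further down the curve.

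COL7A1 and NDOR1 held no other interval, as did 836 of the 1010 genes (82.8%), which held 1 each. The nearest interval to the COL7A1 peak was 111010 nt away, had 5 tags and lay outside the gene. The nearest to the NDOR1 peak was 29578 nt away, with 10 tags, in the beta-tubulin gene TUBB4B. For the tall SNX5 peak it was the 14-tag interval of the same gene, 4152 nt away. Over all 1241 intervals the median distance to the nearest other interval was 155656 nt, with quartiles of 12087 and 682606. COL7A1 and NDOR1 thus lay between the lower quartile and the median, and SNX5 below the lower quartile. In the 174 genes with 2 or more intervals outside small RNA genes, the tallest was typically 1.33 times the second (upper quartile 1.79). SNX5 ranked 2 of 174, after CEP250, a centrosomal linker gene picked once its value had been seen, at 7.29 times. The SNX5 ratio rests on the height that chose SNX5, so its rank is a description only.

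The tall peaks of the 3 genes lay in the body of the gene, away from both ends. COL7A1 spans 48564073 to 48595329 (31257 nt), and its peak was 13184 nt from the gene's start and 18072 nt from its end, at 42.2% of the span in the direction of transcription. NDOR1 spans 137205700 to 137219361 (13662 nt), and its peak lay 7391 nt from the start and 6270 nt from the end, at 54.1%. SNX5 spans 17941600 to 17968794 (27195 nt), and its 97-tag peak lay at 78.6%, with 5808 nt left to the end. Its 14-tag interval lay at 94.1%, 1612 nt from the end, and its 9-tag interval at 22.0%. Over the 1241 intervals the median position was 66.8%, with quartiles of 41.3% and 85.5%, so the 3 tall peaks fell inside the middle range of all intervals. The positions of CPSF4 (72.0%), ARAP1 (64.1%), EPHA2 (57.2%) and both HNRNPH1 intervals of at least 50 tags (79.7% and 75.8%) also fell inside it. Of the other intervals of at least 50 tags, CTPS1 lay above the upper quartile, and CEP250 (28.7%) and HGS (39.1%) lay below the lower one. Exon and intron boundaries were not used here, so these peaks were not assigned to exons, introns or splice sites.

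The 3 genes were shorter than the median gene with a peak, but only NDOR1 lay below the lower quartile. The median span of the 1010 genes was 50737 nt, with quartiles of 22892 and 107142, and 33.0% of them were shorter than COL7A1, 28.2% shorter than SNX5 and 13.6% shorter than NDOR1. Of the genes with the next highest peaks, CPSF4 spans 18431 nt, HNRNPH1 20607 nt, EPHA2 31733 nt and ARAP1 67340 nt. Against these, COL7A1 and SNX5 fell inside the range of spans, whereas NDOR1 (13662 nt) was shorter than each.

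The rule kept only peaks outside annotated small RNA genes, so the distances to the nearest annotated genes are given as description. The nearest other gene to the COL7A1 peak was MIR711, a microRNA gene inside COL7A1 at 48578902 to 48578977 on the same strand, 3143 nt further towards the end of the gene, and MIR711 held no interval. Its mature sequence is shown because it is the annotated small RNA closest to the tallest peak (RefSeq, GRCh38.p14, chromosome 3, 48578914 to 48578935, minus strand; capitals mark the seed, bases 2 to 8).
hsa-miR-711: gGGACCCAgggagagacguaag
This 22-nt sequence and the peak do not overlap. The NDOR1 peak was 4381 nt from LOC122513141, a protein-coding locus that shares the last part of the NDOR1 span (137217494 to 137219361) and held no interval. TMEM203, a gene 52 nt from NDOR1, held none either. The tall SNX5 peak was 15279 nt from SNORD17, a C/D box small nucleolar RNA gene inside SNX5 at 17962710 to 17962946. MGME1, a mitochondrial nuclease gene that overlaps the start of SNX5, held no interval.

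The 9-tag interval of SNX5 lay inside SNORD17. Its midpoint is in the small nucleolar RNA gene, so it belongs to the small RNA class; tags of the host transcript and of the small RNA cannot be told apart here. The list also gives this interval under OVOL2, a transcription factor gene that lies 61331 nt away and does not contain it. Under SNX5 the interval had an expected height of 0.35 tags and a listed p-value of 0.0113. Under OVOL2 the same 9 tags had an expected height of 0.01 and a listed p-value of 1e-100. The listed p-value of this interval thus differs with the gene under which it is given.

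**Figure D2:**
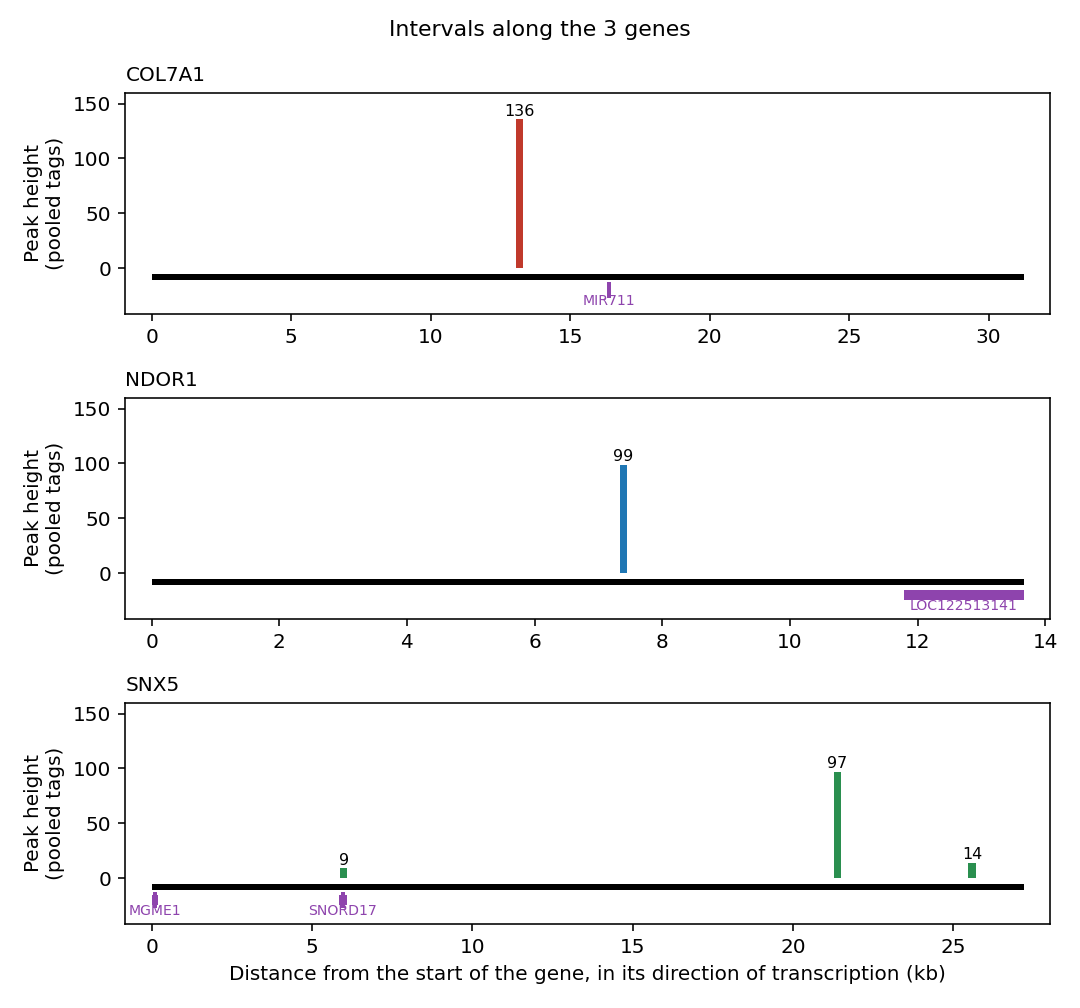
Intervals along COL7A1, NDOR1 and SNX5, with distance from the start of each gene in kb on the x axis and peak height in pooled tags on the y axis; the black bar is the RefSeq span and purple marks are other genes inside or overlapping it. The tall peaks of 136, 99 and 97 tags lie clear of the purple marks, and the 9-tag interval of SNX5 lies at SNORD17.

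The height expected for the gene, which the authors list beside each peak, was also high in all 3 genes. It was 0.91 tags for COL7A1, 0.66 for NDOR1 and 0.35 for SNX5, against a median of 0.05 over the 1204 protein-coding intervals with a listed value above 0. Of the 1010 genes, 98.6% had a lower expected height than COL7A1, 97.5% a lower one than NDOR1 and 94.2% a lower one than SNX5. All intervals of a gene number share 1 expected height, as in each of the 220 gene numbers with more than 1 row. How it was computed is not given in the sources used here, so whether it is independent of the peak heights is unknown.

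Relative to that height, the place of the peaks depended on how the expected height was taken into account. As a plain ratio, COL7A1 was 149 times, NDOR1 150.0 times and SNX5 277 times the expected height, against a median of 167 and quartiles of 85.6 and 300.0 over the 1204 intervals. They ranked 675, 644 and 347 of 1204. COL7A1 and NDOR1 were thus below the median and SNX5 between the median and the upper quartile, although all 3 were at the top by height. The highest ratio among all these intervals was 1900. Expected heights are listed to 0.01 tags, and the lowest protein-coding intervals with an expected height of 0.01 had 4 tags. No ratio at that expected height was therefore under 400. ARAP1, for example, reached 943 times with an expected height of 0.07 and 66 tags. With 1 added to both heights, the ratios were 72.6 for SNX5, 71.7 for COL7A1 and 60.2 for NDOR1, against a median of 7.62, and ranked 1, 2 and 4 of 1204. As a difference from the expected height, COL7A1, NDOR1 and SNX5 ranked 1, 2 and 3. Expected heights reached at most 2.59 tags and SNX5 stood 24 tags above the next interval, so these 3 had to come first. The median expected height was 0.05 and the upper quartile 0.11. The ranks with 1 added therefore also rest largely on the heights that chose the genes.

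Heights in genes of like expected height are given next as a description; since the 3 peaks were chosen as the tallest, all others had to be lower. Within 1.25-fold of the expected height of COL7A1 there were 22 other intervals, of 11 to 46 tags with a median of 16.5; the highest was in SRSF6, the gene of a serine/arginine-rich splicing factor. Within the narrower range of 1.2-fold there were 19 others, the highest with 29 tags in the RNA helicase gene DDX5. Within 1.25-fold of NDOR1 there were 17 others, of 10 to 46 tags with a median of 14, the highest again in SRSF6. Within 1.25-fold of SNX5 there were 64 others, of 8 to 73 tags with a median of 12, the highest in CPSF4. The genes closest to COL7A1 in expected height were HNRNPA1, an RNA-binding repressor of splicing (17 tags), RPLP2, of the ribosomal stalk (24), and ACADVL, of fatty acid oxidation (19). Those closest to NDOR1 were RACK1, a ribosomal scaffold (20 tags outside its small RNA gene), OAZ1, which inhibits polyamine synthesis (12), and SRSF6 (46). For SNX5, 4 other genes had the same value of 0.35, among them EIF4G1, a translation initiation scaffold (11 tags), HNRNPH3 (16) and the paraspeckle gene NONO (16).

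Over the 92 protein-coding intervals with an expected height of 0.3 to 1 tag, a range chosen after the values were seen, the median height was 13 tags. The median ratio was 28.2, with quartiles of 22.0 and 38.1. SNX5 ranked 1, NDOR1 4 and COL7A1 5 of these 92 by the ratio, with CPSF4 at 221 times and EPHA2 at 194 times between SNX5 and NDOR1. Expected heights still differ within this range, from 0.35 for SNX5 to 0.91 for COL7A1, and the order by ratio is not that by height. The heights that chose the genes enter each ratio, so these ranks are a description only. The 14-tag interval of SNX5, at 40.0 times, was just above the upper quartile of this range.

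**Figure D3:**
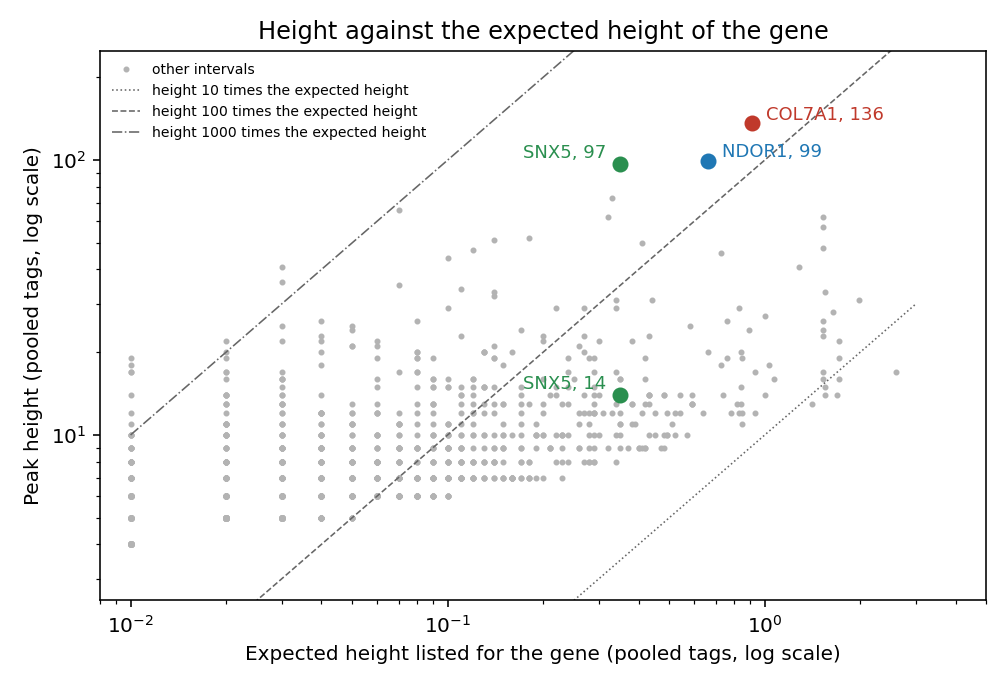
Peak height against the expected height listed for the gene, in pooled tags on log scales, for the 1204 protein-coding intervals with an expected height above 0; sloping lines mark equal ratios. COL7A1, NDOR1 and the tall SNX5 interval, chosen as the 3 tallest, lie at the top right, while many lower peaks of genes with a small expected height lie at ratios as high or higher to the left.

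The listed p-values followed the heights only in part. Protein-coding intervals at the lowest value had a median height of 13 tags, against 7 over all 1241. Within SNX5, the listed p-value was lowest for the 97-tag interval and highest for the 9-tag one. NDOR1 and the tall SNX5 interval were listed at 1e-100, the lowest value in the list, which 218 of the 1241 protein-coding intervals (17.6%) share and which occurs at heights down to 6 tags. COL7A1, the tallest, was listed at 1.09e-09. Of the 1240 protein-coding intervals below it, 253 had a lower listed p-value. The 14-tag interval of SNX5 was among them, at 9.53e-10. Among the 11 intervals of 50 tags or more, COL7A1, CEP250 (2.24e-09) and both of HNRNPH1 (1.44e-09 each) were not at the lowest value. These p-values are the authors' own, and no ranking was drawn from them.

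The tall peaks were somewhat wider than most. The COL7A1 interval was 51 nt wide, the tall SNX5 one 47 nt and the NDOR1 one 45 nt, against a median of 43 nt and quartiles of 42 and 44. The share of protein-coding intervals that were as narrow or narrower was 90.2% for COL7A1, 84.9% for SNX5 and 80.7% for NDOR1. The lower SNX5 intervals were 43 and 42 nt wide. The other 8 protein-coding intervals of at least 50 tags were 43 to 52 nt wide with a median of 45 nt, a range that holds all 3 peaks. The widest of all, at 92 nt, was not among the tall ones. Width was not used to choose the genes, but an interval is bounded at a set part of its peak's height, so it is not independent of the height.

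**Figure D4:**
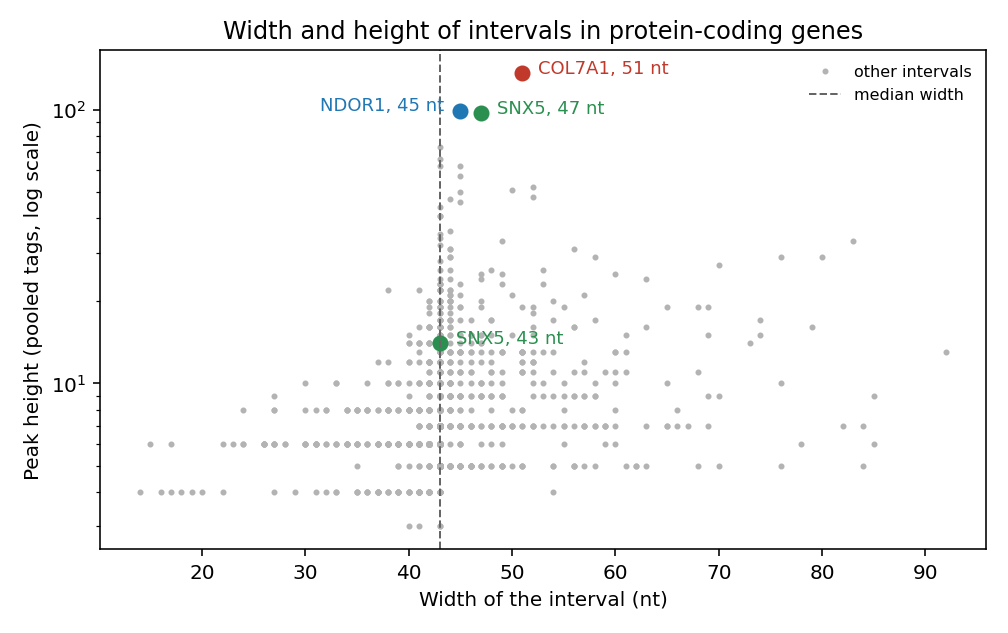
Width of each protein-coding interval in nt against its height in pooled tags (log scale), with the median width of 43 nt dashed. COL7A1 (51 nt), SNX5 (47 nt) and NDOR1 (45 nt) lie at the top, slightly right of the median, and the widest intervals are much lower.

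Relatives of the 3 genes are given beside the share of all genes with a peak. Across all 20046 protein-coding genes, 1057 (5.27%) held an interval, a share that rests on no measure of transcript level. Of 43 other collagen chains, 3 held one (6.98%), close to that background: COL13A1, a transmembrane collagen, with intervals of 15, 15 and 8 tags, COL18A1, a basement membrane collagen, with 8, and COL4A2, of the basement membrane network, with 6. Of 22 genes that modify, fold or secrete collagen, 0 held an interval. Of 14 genes of the epidermal anchoring complex and hemidesmosome, which join keratinocytes to the matrix that type VII collagen anchors, 5 (35.7%) did. These were the plakin genes PLEC (3 intervals of 13 tags) and DST (4 of up to 9), the integrin genes ITGA3 (3 of up to 12) and ITGB4 (10), and LAMA3, a laminin chain (6). Peaks in plakin and laminin genes of this list were known when the genes were grouped, so this share is no independent evidence.

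In the pathway of NDOR1, 2 of 22 other iron-sulfur assembly genes held an interval (9.09%). MMS19, which helps to hand clusters to nuclear proteins, had 15 tags, and NFS1, the cysteine desulfurase that supplies the sulfur, had 7. CIAPIN1, the partner of NDOR1, held none. Of the 6 other diflavin reductases, POR, MTRR, TYW1 and the 3 nitric oxide synthases, 0 held one. Among 29 other sorting nexins, 2 did (6.90%), SNX8 and SNX11 with 4 tags each. SNX1, SNX2 and SNX6, which form dimers or share the BAR architecture with SNX5, held none. Of 17 genes of retromer, retriever and the WASH complex, which act beside SNX5 on endosomes, VPS26B alone held an interval (5.88%), with 6 tags. Above the list's median height of 7 tags, where 2.42% of all protein-coding genes held an interval, 2 other collagen chains, 4 anchoring genes and 1 iron-sulfur gene did, and 0 sorting nexins or retromer genes. A list of significant peaks without transcript levels does not separate absence of contact from low expression, so these counts of 0 concern listed peaks only.

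As a check of the line, 1 of 5 genes marking its mesenchymal-like state (20%), VIM, held an interval (18 tags). The others, CD44, SPARC, MSN and CAV1, held none. Of 6 luminal epithelial markers, CDH1 held 1 of 3 tags, at a pseudogene of a small RNA. Peaks are not expression levels, so the identity of the cells could not be judged from these counts.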

How the data were processed

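SF3B1 HITS-CLIP was deposited as 1 list of peaks for 2 pooled libraries. The authors' signal per peak is its height in pooled tags, not normalized; a deposited text field gives the gene number, the expected height and a p-value. Per the file's name, unique tags and significant peaks were kept and intervals were bounded at a set part of the height. The submitters' processing notes name hg38, BWA 0.7.17 and cutadapt 2.3. The peak caller and the gene annotation are not given in the sources used here. 

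Rows with equal position and strand were merged: the 1587 rows were reduced to 1406 distinct intervals. Of 1191 gene numbers, 1190 matched RefSeq (GRCh38.p14). Intervals at rRNA genes, small RNA genes of at most 500 nt and their pseudogenes were removed from the protein-coding class. The ranges of like expected height were set after the values were seen. Strands came from a RefSeq table of gene starts. Genes named are the 3 genes, the 5 genes with the next highest intervals, the nearest annotated genes, up to 3 genes of closest expected height and listed relatives with an interval (at most 5 per list); any further gene was picked once its value had been seen. The genes and lists were chosen with earlier results of these data known. No test was run: heights chose the genes and nothing is replicated. The assignment step was tested on simulated data. The work used pandas 2.3.3 with numpy 2.4.6 under Python 3.11.15, scipy 1.17.1 for intervals, and matplotlib 3.10.9.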

Additional observations from a re-analysis of the deposited data

How the results depend on the processing

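Of 81 alternative values, 56 stayed the same by the limits used (equal heights, counts and ranks within 1.5 times, positions within 1 percentage point, width shares within their 95% binomial interval) and 25 moved. Heights did not change with rows as listed or with merging within 50 nt, and the number of intervals changed only for SNX5, to 2 of 3, with a p-value of at most 0.001. With small RNA genes kept, or with gene numbers as listed, COL7A1 ranked 2, after an interval at a small RNA gene. With 1 added to both heights, the ratio to the expected height was 71.7 for COL7A1, 60.2 for NDOR1 and 72.6 for SNX5; as a difference it was 135 (COL7A1), 98.3 (NDOR1) and 96.7 tags (SNX5). Within 1.2-fold of its expected height, a range also added after seeing the data, COL7A1 was 4.69 times the tallest other interval, against 2.96 times within 1.25-fold. The rank of the ratio was 2 (COL7A1), 4 (NDOR1) and 1 (SNX5) with 1 added to both heights and 1, 2 and 3 as a difference, against 675, 644 and 347 for the plain ratio; these ranks were also added after seeing the data. Among genes with an expected height of 0.3 to 1, an alternative chosen after seeing the data, the ratio ranked 5 (COL7A1), 4 (NDOR1) and 1 (SNX5). The ranks with 1 added or as a difference rest largely on the heights that chose the genes. Those among genes with an expected height of 0.3 to 1 rest on these heights and on the expected heights. Among intervals above the median height, the share as narrow or narrower was 86.6% for COL7A1, 73.4% for NDOR1 and 79.1% for SNX5. Above that height, 1 iron-sulfur gene, 0 other sorting nexins, 0 retromer genes and 0 luminal markers held an interval.

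No paired analysis was possible because the list pools both replicates, and no replicate was left out. Depth per library is unknown, no input was used, and no exon annotation or genome sequence was used, and transcript levels were not known.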
